A study of Mus musculus with 6 samples.

Results

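The macrophage genes for sensing extracellular nucleotides and breaking them down were followed through 9 transcripts in peritoneal macrophages (PEMs) that lack or carry Tim-4. They are the ATP-gated channels *P2rx4* and *P2rx7*, the P2Y receptors *P2ry2*, *P2ry6*, *P2ry13* and *P2ry14*, the adenosine receptors *Adora2a* and *Adora2b*, and the ectonucleotidase *Entpd1*. They were taken by gene symbol, with earlier results of these data known, from the 15415 genes of the deposited table, and all 9 are in it. PEMs were the cells washed out of the peritoneal cavity of male C57BL/6J mice aged 6 to 8 weeks, 3 days after an injection of starch. The knockout group is LysM-Cre; Tim-4 fl/fl (3 libraries), in which Cre driven from the lysozyme gene *Lyz2* removes floxed *Timd4*, the gene of Tim-4, in myeloid cells at large and not in macrophages alone. The control group is Tim-4 fl/fl (3 libraries), which carries the same floxed alleles and no Cre, so that an effect of Cre and one of the lost Tim-4 cannot be told apart. LPS is the labelled treatment of all 6 libraries, and the methods of the study give 1 μg/ml for 3.5 hours as the way PEMs were activated, without naming the sequenced libraries. The libraries were grouped by their titles, because the genotype field of the labels names the groups in reverse. The labels do not say that each library came from its own mouse or culture, so the p-values measure the spread between libraries, which may be technical.

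ATP leaves cells that are stressed, dying or activated and opens P2X channels, of which P2X7 needs much more ATP than P2X4 and is the one best known for driving the release of IL-1β. The P2Y receptors couple to G proteins and differ in their ligands: P2Y2 responds to ATP and UTP, P2Y6 to UDP, P2Y13 to ADP and P2Y14 to UDP-glucose and other UDP-sugars. Entpd1 (CD39) on the cell surface cuts ATP and ADP down to AMP, 5'-nucleotidase (CD73, *Nt5e*) makes adenosine from AMP, and adenosine acts on the cAMP-raising A2a and A2b receptors, which dampen inflammatory output in macrophages.

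The values are FPKM, that is, reads per gene divided by the gene's length and by the reads of the library, and between 36170767 and 42217558 reads per library stand behind them. *Timd4* stood at 0.333, 0.394 and 0.246 FPKM in knockouts 1 to 3, compared with 19.5, 12.05 and 1.19 FPKM in controls 1 to 3, which is in the direction of the titles, with control library 3 far below the other controls. *Lyz2*, the locus that carries Cre, was at 41.4, 4656 and 106 FPKM in the knockout group against 7090, 7171 and 8482 FPKM in the controls, so that knockout library 2 stood apart from the rest of its group. Markers of macrophages were abundant in every library (*Adgre1* at 235 FPKM or more, *Cd68* at 816 FPKM or more). Transcripts of other cells differed between the groups. The summed level of 4 B cell markers was 2.67 to 5.43 FPKM in the knockout libraries and 26.9 to 112.6 FPKM in the controls, that of 4 mast cell markers 1.28 to 1.64 against 27.2 to 35.9 FPKM, and that of 4 large peritoneal macrophage markers 3.38 to 6.10 against 33.1 to 137.6 FPKM. In these lists 4 of 4, 4 of 4 and 3 of 4 markers were lower in every knockout library than in every control library. One of the 3 in the last list is *Timd4* itself, the deleted gene. The 4 macrophage markers summed to 2238 to 2429 FPKM against 1630 to 2174 FPKM, but 3 of the 4 had a negative log2 fold change. *Cd68*, higher in every knockout library (mean 1642 against 1091 FPKM), carried the sum, and *Csf1r* was lower in every knockout library (83.3 to 143.4 against 151.5 to 179.6 FPKM). The neutrophil markers, 3 of 4 listed, summed to 41.6 to 72.9 against 159.6 to 173.8 FPKM. The platelet markers, 3 of 4 listed, summed to 186.8 to 557.2 against 302.1 to 935.1 FPKM, and the 5 mesothelial cell and fibroblast markers to 9.96 to 24.9 against 2.04 to 10.8 FPKM. The sums were small for T cells (0.733 to 1.37 against 0.866 to 2.83 FPKM), dendritic cells (0.266 to 0.531 against 0.249 to 0.79 FPKM) and eosinophils (0.0436 to 0.184 against 0.112 to 0.203 FPKM, with 1 of 3 markers listed), and *Cd3d* of T cells had 0 reads in knockout libraries 2 and 3. The part of these other cells in the differences described next was not tested, and in bulk RNA fewer cells of a type and less RNA per cell cannot be told apart.

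The groups were set against each other on the log2(FPKM + 1) scale, using limma and the 9030 genes that averaged 1 FPKM or more in one group, with Benjamini-Hochberg adjustment over all of them. Of the 9 genes, 3 rose past an adjusted p of 0.05 in the knockout libraries and 0 fell. These were *Entpd1*, *P2ry6* and *P2rx4*. Over all tested genes 2.57% were called higher, 4.74% lower and 7.31% in either direction. In 4 of the 9 genes, the 3 just named and *P2ry13*, every knockout library lay above every control library. *P2ry13* was tested only because its knockout mean reached the filter, so its place in this count is no support. Over all tested genes 34.1% had groups that did not overlap in one direction or the other. The median log2 fold change was 0.11 for the 9 genes, the value of *P2ry14*, and -0.11 for all tested genes. The former is unstable: it was 0.04 without *P2ry13*, and over the 9 genes it ran from 0.05 without knockout library 2 to 0.31 without control library 2 and 0.52 without control library 1, with 0.23 after rescaling by the median of ratios and 0.33 with voom. With 3 libraries against 3, an exact permutation test cannot give a two-sided p below 0.1, and this is the p of each of these 4 genes. The count of 3 depended on single libraries. No member passed without knockout library 1, knockout library 2 or control library 2, where the count over all genes also dropped from 660 to 30, 63 and 8. With every gene of the table tested, *P2rx4* alone passed.

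**Figure D1:**
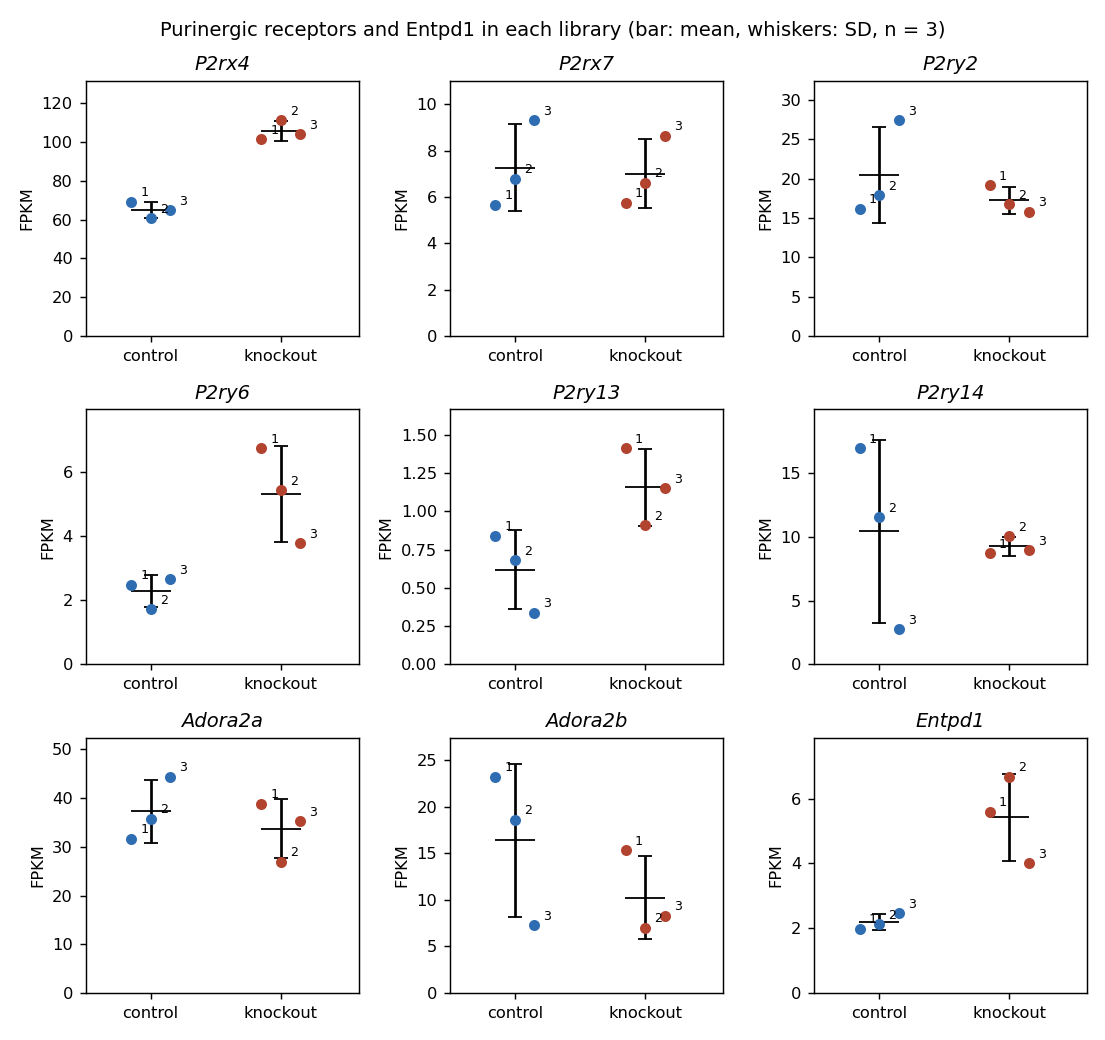
FPKM (vertical axes, from 0) of each of the 9 genes in the 3 control and the 3 knockout libraries, with points numbered by library and bars for the mean and SD (n = 3). The knockout points of *P2rx4*, *P2ry6*, *P2ry13* and *Entpd1* lie above all control points, and control library 3 is the lowest point of *P2ry14* at 2.79 FPKM.

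**Figure D2:**
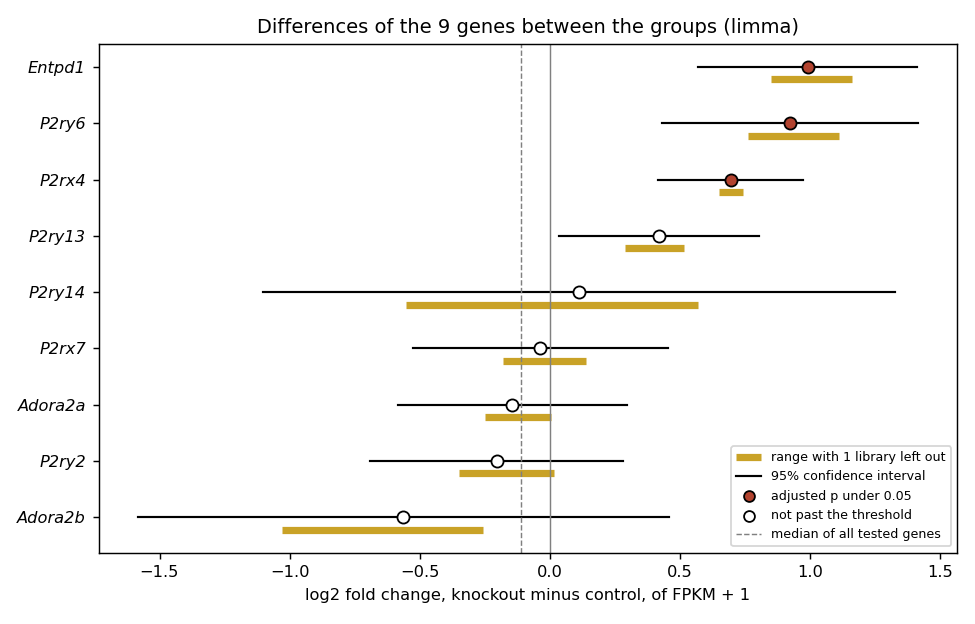
Log2 fold change of each gene (horizontal axis, knockout minus control, of FPKM + 1) with its 95% confidence interval from limma and, below it, the range over the 6 fits that each left out 1 library. *Entpd1* (0.99), *P2ry6* (0.92) and *P2rx4* (0.69) passed the threshold, and the longest range was that of *P2ry14*, from -0.55 to 0.57.

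*P2rx4* (Entrez 18438), the channel that opens at low ATP, was the most abundant of the 9 transcripts in both groups. Its level was 101, 111 and 104 FPKM in knockouts 1 to 3, compared with 69.1, 60.8 and 64.7 FPKM in controls 1 to 3. The lowest knockout library was thus well above the highest control library, and the SD was 4.83% of the mean in the knockout group and 6.44% in the controls. The mean rose 1.63 times, and on the log2 scale the change was 0.69 (standard error 0.12, 95% confidence interval 0.42 to 0.97, limma adjusted p = 0.0212). It stayed past the threshold in 9 of 12 alternative fits, in which the adjusted p ran from 0.0166 to 0.124.

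*P2rx7* (Entrez 18439), the neighbour of *P2rx4* in the genome and the channel tied to inflammasome activation, did not separate the groups. It was at 5.75, 6.62 and 8.64 FPKM in the knockout group, compared with 5.66, 6.79 and 9.33 FPKM in the controls. Library 3 was the highest and library 1 the lowest in each group. The log2 fold change was -0.04 (95% confidence interval -0.53 to 0.45, limma adjusted p = 0.924), and the sign turned to 0.09 when the libraries were rescaled by the median of ratios. Within each library *P2rx4* was 12 to 17.6 times as abundant per length as *P2rx7* in the knockout group and 6.94 to 12.2 times in the controls, ranges that meet at their ends. This ratio and the others in the text were formed after the values had been seen.

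The start regions of this neighbouring pair are shown because one of the genes rose past the threshold and the other did not. The sequences are from RefSeq, build GRCm38.p6, and run 5' to 3' from 250 bases before to 50 bases after the annotated start on the plus strand, with CpG dinucleotides in capitals. The window of *P2rx4* is chr5:122707294-122707593, and the first of 2 windows of *P2rx7* is chr5:122643677-122643976.
P2rx4: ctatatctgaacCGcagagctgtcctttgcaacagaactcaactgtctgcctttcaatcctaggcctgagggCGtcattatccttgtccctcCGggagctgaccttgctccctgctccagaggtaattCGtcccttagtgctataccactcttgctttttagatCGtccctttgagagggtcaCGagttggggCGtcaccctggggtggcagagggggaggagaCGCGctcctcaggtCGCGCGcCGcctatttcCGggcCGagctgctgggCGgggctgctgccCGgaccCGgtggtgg
P2rx7: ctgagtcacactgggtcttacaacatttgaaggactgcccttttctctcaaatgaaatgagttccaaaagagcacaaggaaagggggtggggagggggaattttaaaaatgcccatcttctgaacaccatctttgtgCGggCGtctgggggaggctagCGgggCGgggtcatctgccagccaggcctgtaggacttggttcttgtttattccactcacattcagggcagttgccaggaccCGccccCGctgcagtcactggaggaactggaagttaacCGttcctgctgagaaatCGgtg

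The *P2rx4* window holds 18 CpG dinucleotides and 60.3% G and C, and the *P2rx7* window shown holds 8 and 53.3%, where the median over 32851 promoter windows of this length is 7 and 52.7%. Windows were found for 7 of the 9 genes, not for *P2ry6* and *Adora2a*. Both strands were searched for GAAANNGAA (an interferon response motif), GGGANTTCC (an NF-κB motif), TGACGTCA (the cAMP response element) and ACGTG (the core of the hypoxia response element), which occur in 8.56%, 1.68%, 1.79% and 19.6% of all windows. None of these letters was found in the windows of *P2rx4*, *P2rx7*, *P2ry13*, *Adora2b* or *Entpd1*. ACGTG was found in both windows of *P2ry2*, which overlap and match on both strands at 1 site, and GGGANTTCC in 1 of the 4 windows of *P2ry14*.

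Among the P2Y receptors, *P2ry6* (Entrez 233571), the UDP receptor known for its part in phagocytosis by microglia, was the one that rose past the threshold. It was at 6.73, 5.42 and 3.77 FPKM in the knockout group, compared with 2.48, 1.73 and 2.66 FPKM in the controls, from 388 to 711 and from 169 to 246 reads. The groups did not overlap, although knockout library 3 lay closer to the highest control library than to knockout library 1. The mean rose 2.32 times, and on the log2 scale the change was 0.92 (standard error 0.21, 95% confidence interval 0.43 to 1.42, limma adjusted p = 0.0443). The call is a narrow one. It held in 5 of 12 alternative fits, with adjusted p from 0.0304 to 0.179, and was lost with voom on recovered reads (0.0559), with a filter of 10 reads in every library (0.0521) and without control library 1 (0.0555).

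*P2ry2* (Entrez 18442), the ATP and UTP receptor and the neighbour of *P2ry6* in the genome, was at 19.2, 16.8 and 15.8 FPKM in the knockout group, compared with 16.2, 17.9 and 27.5 FPKM in the controls. Control library 3 stood above the other 5 libraries, which overlapped. The log2 fold change of -0.21 did not pass (95% confidence interval -0.69 to 0.28, limma adjusted p = 0.547) and was 0.015 without control library 3. The ratio of *P2ry6* to *P2ry2*, which no scaling between libraries can move, was 0.238 to 0.351 in the knockout group and 0.0965 to 0.153 in the controls. That of *P2ry6* to *P2ry14*, equally free of scaling, overlapped, at 0.422 to 0.77 in the knockout group and 0.146 to 0.955 in the controls.

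*P2ry13* (Entrez 74191), an ADP receptor coupled to Gi, was the scarcest of the 9 genes. It had 150, 97 and 119 reads in the knockout libraries (1.41, 0.909 and 1.15 FPKM) and 84, 67 and 31 reads in the controls (0.842, 0.681 and 0.339 FPKM). The knockout libraries all lay above the controls, but knockout library 2 and control library 1 differed by less than the spread within either group. The gene reached the filter through its knockout mean of 1.16 FPKM alone, since its control mean was 0.620 FPKM. Its log2 fold change of 0.42 (standard error 0.16) did not pass (limma adjusted p = 0.155, 0.0972 to 0.401 over the alternatives). At this level the pseudocount of 1 shrinks the value, which was 0.85 with a pseudocount of 0.1 and 1.12 with voom.

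*P2ry14* (Entrez 140795), the UDP-sugar receptor, was at 8.74, 10.1 and 8.94 FPKM in the knockout group, compared with 16.9, 11.5 and 2.79 FPKM in the controls. The knockout libraries sat close together (SD 7.76% of the mean) inside the span of the controls (SD 68.5% of the mean). The log2 fold change was 0.11 (95% confidence interval -1.10 to 1.32, limma adjusted p = 0.908), an interval that leaves a change of either sign. Leaving out control library 3 turned it to -0.55 (limma adjusted p = 0.0857, the lowest over the alternatives, which reached 0.976). In the GENCODE gene models used for names (release of GRCm38, while the submitters' processing notes name mm9), *P2ry13* and *P2ry14* lie within *Med12l* on the opposite strand. Whether the counting used strand is not given in the sources used here, and *Med12l* itself was at 0.0279 FPKM or less in every library.

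The adenosine receptors did not differ past the threshold. *Adora2a* (Entrez 11540) was the second most abundant of the 9 genes, at 38.8, 27.0 and 35.3 FPKM in the knockout group, compared with 31.7, 35.8 and 44.4 FPKM in the controls. The groups overlapped over most of their range, and the log2 fold change was -0.14 (95% confidence interval -0.58 to 0.30, limma adjusted p = 0.647). *Adora2b* (Entrez 11541), the receptor of lower affinity, was at 15.3, 7.01 and 8.31 FPKM in the knockout group, compared with 23.2, 18.6 and 7.29 FPKM in the controls. Control library 3 was within the range of the knockout libraries, while control libraries 1 and 2 were above all of them. The log2 fold change of -0.56 did not pass (standard error 0.43, limma adjusted p = 0.432). Leaving out control library 3 took it to -1.03 (limma adjusted p = 0.0658, the lowest over the alternatives, which reached 0.76). *Adora2a* was 1.37 and 1.92 times as abundant per length as *Adora2b* in control libraries 1 and 2, 6.09 times in control library 3, and 2.54 to 4.25 times in the knockout libraries.

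*Adora2b* and *P2ry14* thus shared a library pattern among the controls, with control library 1 highest and control library 3 lowest. Control library 3 was also the control with the least *Timd4* (1.19 FPKM against 12.05 and 19.5 FPKM) and *Cd79a*, a B cell receptor component (15.3 FPKM against 33.7 and 57.6 FPKM). The part of these cells in the values of *Adora2b* and *P2ry14* was not tested. *P2rx7*, *P2ry2* and *Adora2a* went the other way, with their highest value of all 6 libraries in control library 3.

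**Figure D3:**
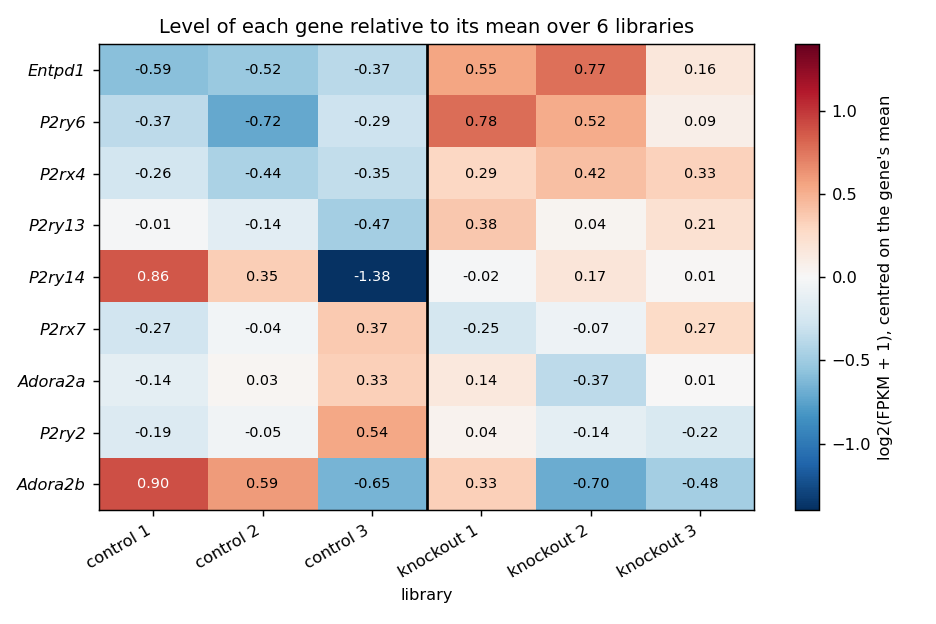
Level of each gene (rows) in each library (columns) as log2(FPKM + 1) minus the gene's mean over the 6 libraries, with red above and blue below the mean. The rows of *Entpd1*, *P2ry6* and *P2rx4* are below 0 in the 3 control and above 0 in the 3 knockout libraries, while control library 3 holds the lowest value of all, -1.38 for *P2ry14*.

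*Entpd1* (Entrez 12495), the enzyme that removes extracellular ATP and ADP, had a log2 fold change above that of *P2ry6* with all libraries (0.99 against 0.92), but below it without knockout library 2 (0.851 against 0.896) and without control library 1 (0.944 against 0.970). It was at 5.59, 6.67 and 4.005 FPKM in the knockout group, compared with 1.98, 2.12 and 2.46 FPKM in the controls, from 814 to 1398 and from 389 to 442 reads. The groups were apart, and the knockout libraries differed more among themselves (SD 24.7% of the mean) than the controls did (11.2%). The mean rose 2.48 times, and on the log2 scale the change was 0.99 (standard error 0.18, 95% confidence interval 0.57 to 1.41, limma adjusted p = 0.0250). It held in 8 of 12 alternative fits, with adjusted p from 0.017 to 0.118, and was 1.43 with voom on recovered reads (adjusted p = 0.0265).

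The start regions of *Entpd1*, a gene that passed the threshold, are printed in the same way (RefSeq, GRCm38.p6, plus strand, CpG in capitals). They lie at chr19:40612116-40612415 and chr19:40659520-40659819, and the files do not show from which start the reads came.
Entpd1 start 1: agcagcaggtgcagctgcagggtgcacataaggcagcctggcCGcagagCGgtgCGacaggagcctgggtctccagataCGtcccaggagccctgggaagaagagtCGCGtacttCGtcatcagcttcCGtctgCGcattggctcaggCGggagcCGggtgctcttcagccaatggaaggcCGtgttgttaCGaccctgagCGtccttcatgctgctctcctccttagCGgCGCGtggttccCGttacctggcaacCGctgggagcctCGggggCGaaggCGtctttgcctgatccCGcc
Entpd1 start 2: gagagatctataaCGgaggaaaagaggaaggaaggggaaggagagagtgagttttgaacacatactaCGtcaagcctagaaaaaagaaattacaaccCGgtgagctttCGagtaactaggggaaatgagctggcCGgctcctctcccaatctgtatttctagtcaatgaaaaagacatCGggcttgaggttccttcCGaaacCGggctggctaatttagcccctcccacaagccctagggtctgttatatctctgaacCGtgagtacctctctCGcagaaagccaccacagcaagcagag

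The first *Entpd1* window holds 23 CpG dinucleotides and 64% G and C, and the second 10 and 48.7%. Over the windows of all 7 genes found, the CpG count ran from 1 in a window of *P2ry14* to 30 in a window of *P2ry2*, so the windows of *P2rx4* and *Entpd1* lay within the range of genes that did not pass the threshold.

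In the order of FPKM levels the controls ran from *P2rx4* (64.9) through *Adora2a* (37.3), *P2ry2* (20.51), *Adora2b* (16.4), *P2ry14* (10.4), *P2rx7* (7.26), *P2ry6* (2.29) and *Entpd1* (2.19) to *P2ry13* (0.620). The ranges of neighbours from *P2ry2* to *P2rx7* overlapped, as did those of *P2ry6* and *Entpd1*, so their order is not fixed by these libraries. The group means of the knockout libraries kept the first 6 places, from *P2rx4* at 105.6 to *P2rx7* at 7.005 FPKM. Single libraries did not all keep this order, since the knockout ranges of *Adora2b* (7.01 to 15.3 FPKM) and *P2ry14* (8.74 to 10.1 FPKM) overlapped. *Entpd1* and *P2ry6*, at 5.42 and 5.31 FPKM, overlapped each other, and both overlapped *P2rx7*, which in the controls stood above both without overlap.

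Summed over the 8 receptors, the level was 185.1 to 197.4 FPKM in the knockout and 153.8 to 166.1 FPKM in the control libraries. Shares by receptor class were computed after the values had been seen. The P2X channels made up 54.3%, 63.7% and 60.6% of this sum in knockout libraries 1 to 3 and 45%, 43.9% and 46.6% in control libraries 1 to 3. Most of that was *P2rx4*. The P2Y receptors summed to 29.7 to 36.0 FPKM against 31.8 to 36.4 FPKM and the adenosine receptors to 33.99 to 54.1 FPKM against 51.7 to 54.9 FPKM, both with overlapping groups. Their shares did not overlap. The P2Y share was 16.0 to 18.3% against 20.7 to 21.9%, and the adenosine share 18.4 to 27.4% against 32.5 to 35.4%. The shares of a library add to 100%, so a larger P2X share lowers the others.

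**Figure D4:**
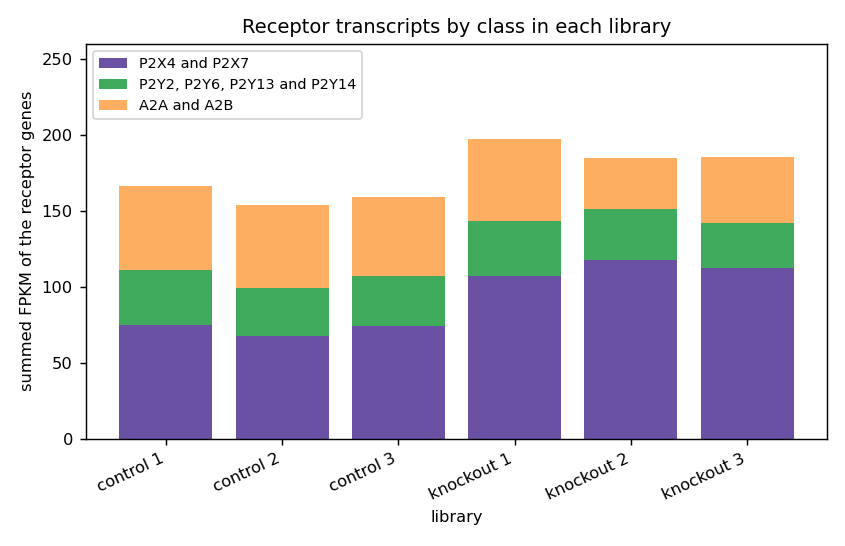
Summed FPKM (vertical axis) of the P2X, P2Y and adenosine receptor genes, stacked, in each of the 6 libraries. The P2X part is 67.6 to 74.8 FPKM in the control and 107 to 118 FPKM in the knockout libraries, and the other parts overlap between the groups.

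Around these 9 genes, 51 further genes of nucleotide release, sensing and breakdown and of G protein signalling were listed, of which 43 are in the table and 26 passed the filter. Of the 26, 0 rose and 2 fell past the threshold, where 4.74% of all tested genes fell, and the median log2 fold change of -0.11 was that of all tested genes too. The 2 that fell encode channels that can let ATP out of cells, and a count of this size is near that background. *Panx1*, which encodes the pannexin channel that is opened by caspases in dying cells, was at 3.73, 2.97 and 5.52 FPKM in the knockout group, compared with 13.5, 15.2 and 19.5 FPKM in the controls. On the log2 scale the change was -1.77 (standard error 0.22, limma adjusted p = 0.0110). *Gja1*, which encodes the gap junction protein connexin 43, was at 3.35, 3.29 and 6.94 FPKM against 18.7, 20.48 and 16.3 FPKM, and on the log2 scale the change was -1.87 (standard error 0.25, limma adjusted p = 0.0122). In both genes the knockout libraries all lay below the controls, with knockout library 3 the highest of its group. *Panx1* passed in 10 of 12 alternative fits and *Gja1* in 9, and neither passed without knockout library 1 or control library 2, nor *Gja1* without knockout library 2. The other 3 tested genes of that list, the volume-regulated channel subunits *Lrrc8a* and *Lrrc8d* and the vesicular transporter *Slc17a9*, had log2 fold changes of -0.28, -0.31 and -0.38 and did not pass.

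Of the other enzymes of nucleotide breakdown, 9 of 12 are in the table, 4 were tested and 0 passed. *Acpp*, a phosphatase whose membrane form can make adenosine from AMP and which was singled out after its values were seen, was at 2.76, 2.38 and 11.2 FPKM in the knockout group, compared with 41.1, 30.5 and 13.8 FPKM in the controls. Its log2 fold change of -2.33 fell short of the threshold (limma adjusted p = 0.0519) but passed without knockout library 3 (0.02) and without control library 3 (0.0196). *Nt5e*, the enzyme next after *Entpd1* in the pathway, was below the filter, with 4, 6 and 19 reads in the knockout libraries and 78, 47 and 25 reads in the controls (0.130 FPKM or less against 0.193 FPKM or more). The groups did not overlap, and the gene was not among the 9030 tested. *Entpd5*, *Entpd7* and *Enpp1*, the remaining tested enzymes, had log2 fold changes from -0.12 to 0.38.

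Of the genes of adenosine uptake and metabolism, 5 of 8 were tested and 0 passed. All 5 had a positive log2 fold change, as had 3297 of all 9030 tested genes. For *Pnp* that value was 0.09 with a ratio of mean FPKM of 0.994. Among the genes under the filter, *Slc29a2* (6 to 10 reads against 20 to 21) and *Dpp4* (28 to 51 reads against 50 to 272) were lower in every knockout library per length and depth. *Slc29a3*, a nucleoside transporter of lysosomes and also named after its values were seen, was at 34.8, 41.8 and 25.96 FPKM against 10.1, 13.97 and 23.2 FPKM, and on the log2 scale the change was 1.12 (limma adjusted p = 0.0673), which passed after rescaling by the median of ratios (0.0462) and without control library 3 (0.0107). *Slc28a2*, a nucleoside transporter of the plasma membrane, was at 40.2, 57.3 and 21.1 FPKM against 28.4, 19.6 and 4.10 FPKM, with overlapping groups and a log2 change of 1.37 (limma adjusted p = 0.222) that passed with the replicate block. *Ada*, the gene of adenosine deaminase, stayed below the filter in both groups, at 0.586 to 0.806 and 0.482 to 1.08 FPKM. Of the receptors outside the 9 genes, 3 of 5 P2X, 4 of 6 P2Y and both adenosine receptors are in the table. *Adora1* and *Adora3* were at 0.141 FPKM or less, *P2ry1* at 0.277 FPKM or less and *P2ry12* at 0.456 FPKM or less in every library. The tested ones were *P2ry10* and *P2ry10b*, 0 of which passed, with log2 fold changes of -0.93 and -0.82. They are close copies of each other, and how the counting divided reads between them is not given in the sources used here. Of the 12 genes of G protein and cAMP signalling, 10 were tested and 0 passed, with a median log2 fold change of -0.09.

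**Figure D5:**
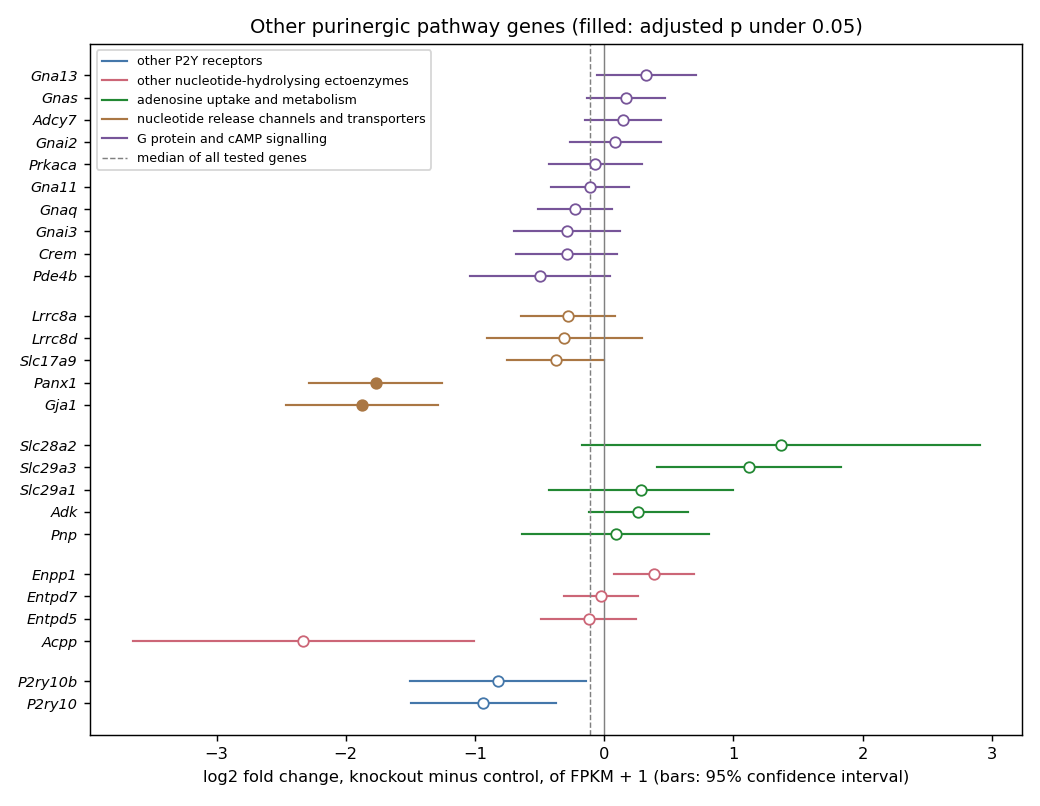
Log2 fold changes (horizontal axis, knockout minus control, of FPKM + 1) with 95% confidence intervals for the 26 tested genes of the wider pathway, coloured by list, filled where the adjusted p was under 0.05. *Panx1* and *Gja1*, at -1.77 and -1.87, are the filled points, and the dashed line marks the median of all tested genes at -0.11.

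The likeness of other genes was measured for *P2rx4* and *Entpd1*, the members with the smallest p, as the mean absolute difference over the 6 libraries between log2(FPKM + 1) values centred on each gene's mean. The nearest to *P2rx4* were *Dennd2a*, *Dcakd* and *Ctsb*, the last of which encodes the lysosomal protease cathepsin B, with mean differences of 0.0383, 0.0520 and 0.0618. *Ctsb* was at 2286 to 2837 FPKM in the knockout group, compared with 1621 to 1755 FPKM in the controls. The nearest to *Entpd1* were *Pianp*, *Tbc1d1* and *Lrp4*, with mean differences of 0.0407, 0.0634 and 0.0709. *Tbc1d1*, a regulator of glucose transporter traffic, was at 16.9 to 21.8 FPKM in the knockout group, compared with 8.78 to 10.5 FPKM in the controls.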

How the data were processed

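RNA of PEMs from 3 knockout and 3 control libraries was analysed from a table of the whole comparison. The authors deposited FPKM per library, and the deposited signal columns are group means of read counts divided by DESeq2 size factors. The table also holds the authors' fold changes and p-values, which were not used. It lists genes whose mean in this measure exceeds 1. The submitters' processing notes name the build mm9, and the aligner, counter and annotation are not given in the sources used here. The FPKM and the group means gave back whole reads (within 0.05 of a read for 100% of values), and no per-sample column was left unused. The 9 genes, the lists and the tests were chosen with earlier results of these data known.

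The fit used limma 3.58.1 in R 4.3.3 (lmFit, then eBayes with its trend option) on log2(FPKM + 1) for 9030 genes. P-values were adjusted over all of them by the Benjamini-Hochberg method at 0.05, and fold changes are on the log2(FPKM + 1) scale, which understates low genes. Beside the 9 genes, the pathway genes past the threshold and *Nt5e*, *Ada*, *Panx1*, *Adora1*, *Adora3*, *P2ry1* and *P2ry12* were to be named, and the 3 genes nearest to each of the members with the smallest p. Every other pathway gene given with values was picked after these were seen.

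Alternatives were no filter, 10 reads in every library, the replicate number as a block, a pseudocount of 0.1, rescaling by the median of ratios, voom on recovered reads, and each library left out. The replicate block was a planned paired alternative, run whatever the correlations between libraries, and the values reported come from the fit without it. Deviations from the group means of libraries with the same number correlated at 0.11, 0.11 and 0.30. Libraries of unlike number reached 0.291 (knockout 2 with control 1) and ran down to -0.332, and no label gives a pairing.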

Additional observations from a re-analysis of the deposited data

How the results depend on the processing

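The number of the 9 genes past the threshold (3, all higher) was 1 without a filter on low values and 2 with the filter of 10 reads and with voom. Leaving out 1 library at a time gave 0 to 3, with 0 without knockout library 1, knockout library 2 or control library 2. Over all tested genes, 660 passed (232 higher, 428 lower), against 141 higher without a filter and 352 higher with the replicate block, and against 8 to 1278 (1 to 513 higher, 7 to 765 lower) with 1 library left out. Rescaling by the median of ratios shifted the all-gene median, on the log2 scale, from -0.11 to 0.01 and the split to 343 higher and 326 lower, and voom gave 298 higher and 291 lower. The highest count over all genes (1278) came without control library 3 and the lowest (8) without control library 2.

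The replicate block changed no call among the 9 genes (adjusted p = 0.0383 for *P2rx4*, 0.0444 for *P2ry6* and 0.0313 for *Entpd1*). In the wider pathway, where 0 rose and 2 fell, *Slc28a2* made 1 higher with the block and *Slc29a3* made 1 higher after rescaling. Leaving out 1 library gave 0 to 7 genes, 0 to 1 higher and 0 to 6 lower, with the most without control library 3. With the filter of 10 reads and a pseudocount of 0.1, 3 genes passed, with *P2rx1* and *P2ry10* as the third.

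*P2ry6* kept its direction but lost its call at a log2 fold change of 0.923 without a filter and with the 10-read filter, and at 1.341 with voom. *Entpd1* did so at 0.990 without a filter (limma adjusted p = 0.0539). With 1 library left out, the log2 fold changes ran from 0.649 to 0.741 for *P2rx4*, 0.763 to 1.111 for *P2ry6*, 0.851 to 1.159 for *Entpd1*, -1.965 to -1.606 for *Panx1* and -2.167 to -1.724 for *Gja1*. Small differences changed sign. *P2rx7* was at 0.092 after rescaling and 0.105 with voom, and with 1 library left out it ran from -0.180 to 0.137, *P2ry2* from -0.349 to 0.015, *Adora2a* from -0.251 to 0.004 and *P2ry14* from -0.552 to 0.570. The sign of *P2ry2* and *P2ry14* turned without control library 3, and that of *Adora2a* without knockout library 2. The causes were not tested. A left-out fit leaves 2 libraries in one group, and depth limits *P2ry13* (31 to 150 reads) and *Nt5e* (4 to 78 reads).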

Other observations

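*P2ry12*, *P2ry13*, *P2ry14* and *Gpr171*, related receptor genes that are near one another in the genome, differed in how their reads fell between the groups, as seen after the values were known. *P2ry12*, an ADP receptor best known from platelets and microglia, was covered by 26, 19 and 50 reads in the knockout group (libraries in order). The controls had 12, 15 and 5 reads, so the ranges of the groups did not meet. Such a gap is common, since 34.1% of all tested genes had groups that did not overlap in one direction or the other. *Gpr171* had 8, 4 and 10 reads in the knockout libraries and 100, 71 and 9 reads in the controls, with control library 3 as low as the knockout libraries. *P2rx1*, an ATP-gated channel of platelets and other blood cells, had 32, 15 and 22 reads against 104, 83 and 45 reads. *P2ry12*, *Gpr171* and *P2rx1* averaged under 1 FPKM in both groups and so were not among the 9030 genes tested. *P2rx1* passed the threshold when the filter was 10 reads in every library.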
